A study of Caenorhabditis elegans with 2 samples.

Results

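The autosomal intronic peaks are called peaks of chromatin precipitated with tagged CEH-8 that lie in introns of protein-coding genes on chromosomes other than X. Whether CEH-8 binds the DNA of each peak directly was not tested. A peak was taken when its summit fell inside a protein-coding gene, in none of that gene's exons, and outside the 1000 bp upstream of every protein-coding gene start. This gave 307 peaks, or 16.2% of the 1891 peaks in the authors' optimal list and 20.8% of its 1475 autosomal peaks. Chromatin was precipitated with an anti-GFP antibody and sequenced in 2 biological replicates of whole *Caenorhabditis elegans* larvae, which form 1 group, so no conditions were compared. The strain OP760 is mutant for unc-119(tm4063) and carries the insertion wgIs760, which holds ceh-8::TY1::EGFP::3xFLAG together with unc-119(+). The animals were mixed sex, at the L1 stage (6 hours), and had been starved after bleaching. Whole animals were used, so the cells from which a peak came cannot be told apart. The transgene adds copies of ceh-8 and unc-119 whose reads cannot be told from those of the chromosomal genes. The optimal list was selected by IDR, the irreproducible discovery rate, a measure of how alike peaks rank between replicates. The signal of a peak is the authors' value on a scale not given in the sources used here, and tests used only its rank within a list. Signals of the 2 replicates are printed and plotted side by side as descriptions, and whether their scales match is not known.

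CEH-8 belongs to the paired-like homeodomain proteins and is known as a marker of RIA, a pair of interneurons. Homeodomains recognise short sites with a TAAT core, and paired-class homeodomains can bind as dimers to TAAT and ATTA facing each other across a short gap. Introns of *C. elegans* genes, first and long introns above all, are known to hold enhancers, internal promoters and genes for non-coding RNA.

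Sequences are from the RefSeq sequence of WBcel235 (ce11) and run 50 bp to each side of a summit, with searched motifs in capitals. Capitals mark the dimer palindrome TAATNNNATTA, the homeodomain site TAATTA and its variant TAATTG, the GA repeat GAGAGA and the word AGACGCAG, on either strand. The first 5 peaks are shown because they hold the palindrome, which was found at 8 summits and in none of their flanks.
sec-23, intronic peak at chrV:20094054-20094154, plus strand: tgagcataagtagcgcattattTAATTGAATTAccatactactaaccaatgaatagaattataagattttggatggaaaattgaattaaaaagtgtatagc
max-2, intronic peak at chrII:13018361-13018461, plus strand: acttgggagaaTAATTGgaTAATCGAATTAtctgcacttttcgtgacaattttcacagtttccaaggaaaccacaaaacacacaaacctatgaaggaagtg
pes-4, intronic peak at chrIII:1225716-1225816, plus strand: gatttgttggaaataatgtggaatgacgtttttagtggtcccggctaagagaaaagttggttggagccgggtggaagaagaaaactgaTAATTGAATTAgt
Y53G8AM.8, intronic peak at chrIII:3271386-3271486, plus strand: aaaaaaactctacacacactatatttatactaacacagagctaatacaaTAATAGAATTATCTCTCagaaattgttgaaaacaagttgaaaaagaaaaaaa
ceh-62, intronic peak at chrII:10807030-10807130, plus strand: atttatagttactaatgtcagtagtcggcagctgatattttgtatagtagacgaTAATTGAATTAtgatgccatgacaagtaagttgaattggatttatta

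The next 4 are shown because they carry GAGAGA or AGACGCAG, both more frequent at summits than in flanks.
pqn-41, intronic peak at chrIII:1921420-1921520, plus strand: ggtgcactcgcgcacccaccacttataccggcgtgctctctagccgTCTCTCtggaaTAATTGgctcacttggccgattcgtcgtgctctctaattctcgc
daf-14, intronic peak at chrIV:10252458-10252558, plus strand: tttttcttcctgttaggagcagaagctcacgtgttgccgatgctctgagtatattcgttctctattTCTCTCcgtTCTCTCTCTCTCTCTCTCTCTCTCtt
W06H8.6, intronic peak at chrV:6224680-6224780, plus strand: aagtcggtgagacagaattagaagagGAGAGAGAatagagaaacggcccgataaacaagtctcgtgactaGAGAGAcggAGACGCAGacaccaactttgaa
epg-9, intronic peak at chrIV:2602104-2602204, plus strand: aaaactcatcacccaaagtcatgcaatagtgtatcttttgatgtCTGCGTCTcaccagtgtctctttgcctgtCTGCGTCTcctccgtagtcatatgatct

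The next peak, in casy-1, is shown for TAATTA, which was about as frequent in flanks as at summits. The last 3 are rich in G and C. That in pqn-41 was the strongest intronic peak on its chromosome, and those in bed-2 and lin-42 were among the strongest peaks of replicate 1 only.
casy-1, intronic peak at chrII:5956188-5956288, plus strand: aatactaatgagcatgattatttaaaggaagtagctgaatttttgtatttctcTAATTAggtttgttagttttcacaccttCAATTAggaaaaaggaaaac
pqn-41, intronic peak at chrIII:1923722-1923822, plus strand: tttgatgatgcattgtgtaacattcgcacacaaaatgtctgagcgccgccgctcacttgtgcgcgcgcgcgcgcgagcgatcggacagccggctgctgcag
bed-2, intronic peak at chrIII:11467746-11467846, plus strand: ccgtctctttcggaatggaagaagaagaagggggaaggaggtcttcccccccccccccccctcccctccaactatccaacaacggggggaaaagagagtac
lin-42, intronic peak at chrII:1238041-1238141, plus strand: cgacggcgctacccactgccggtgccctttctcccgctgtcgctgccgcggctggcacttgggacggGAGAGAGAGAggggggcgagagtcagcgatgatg

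The strength of the intronic peaks and their recovery in each replicate were described first. A peak was called found in both replicates when each replicate had, within 200 bp of its summit, a peak among its own 1891 strongest. Of the intronic peaks 175 (57%) were found in both, beside 58% of the whole optimal list. Another 60 (19.5%) were among the strongest of replicate 1 only, 65 (21.2%) of replicate 2 only, and 7 of neither. For autosomal promoter peaks, with a summit in the 1000 bp upstream of a gene start, the single-replicate shares were 15.3% and 15.1%. For autosomal peaks outside genes and promoters they were 25.5% and 20.4%. Counting peaks of any strength, 2 intronic peaks had no replicate 1 peak within 200 bp and 24 had no replicate 2 peak. The signal of the intronic peaks in the optimal list ran from 88.5 to 638 with a median of 124. Of these peaks 14 (4.56%) ranked among the strongest 100 of the 1891. The same held for 6.78% of autosomal promoter peaks and 3.95% of autosomal peaks outside genes and promoters. Across the 281 intronic peaks with a peak in both lists, Spearman's rank correlation of the replicate signals was 0.344. These points share 2 libraries and their base composition, and the value is a description. Most peaks (281) were 350 bp wide. The other 26 were narrower, down to 97 bp, and 22 of them were found in both replicates.

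**Figure D1:**
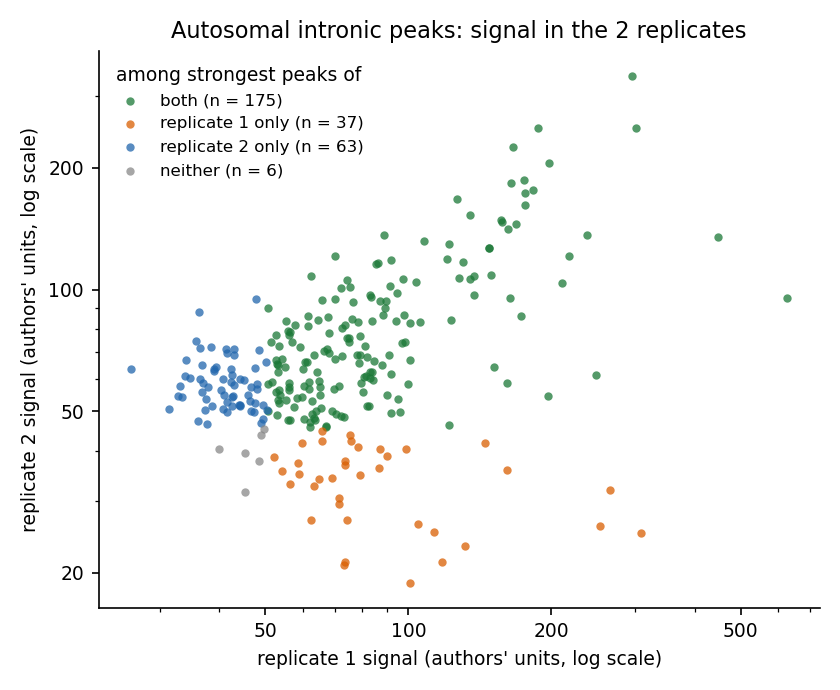
Authors' signal of the intronic peaks in replicate 1 (horizontal, log scale) and replicate 2 (vertical, log scale), coloured by whether the peak lay at one of the 1891 strongest peaks of both, 1 or neither replicate. The plot holds the 281 peaks with a peak of any strength in both lists, and the strongest points of replicate 1 alone lie far to the right at low replicate 2 signal.

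The strongest intronic peak lay in intron 1 of ceh-8 itself (I, 8250672 to 8250864), with a signal of 295 in replicate 1 and 337 in replicate 2, ranks 36 and 18. The second, in intron 15 of pqn-41 (III, 1923676 to 1923907), had 626 in replicate 1 and 95.6 in replicate 2, ranks 2 and 375. pqn-41 encodes a glutamine-rich protein. The third, in ppfr-1, which encodes a regulatory subunit of protein phosphatase, had 448 and 135 in replicates 1 and 2. The replicates thus ranked the ceh-8 peak alike and the pqn-41 and ppfr-1 peaks apart.

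A further peak of high rank lay in dhc-4, a dynein heavy chain gene (187 in replicate 1 and 251 in replicate 2). Another lay in epg-9, an autophagy gene (166 and 225). Both of these peaks ranked higher in replicate 2 than in replicate 1. The peak in pxn-1, a peroxidasin gene, had 197 and 205, and that in rgs-3, a regulator of G protein signalling, had 175 and 187. The neuropeptide gene nlp-11 held a peak of 165 and 183, and lsy-22, which encodes a Groucho-related protein, one of 168 and 146. T28F4.1, Y56A3A.7, Y70G10A.3 and F58G1.7 complete the 15 strongest peaks found in both replicates, in which ceh-8 and pqn-41 appear 2 times each. The strongest peak on II was in rgs-3, that on III in pqn-41, that on IV in epg-9 and that on V in pxn-1.

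Where in a gene the peaks lay was set beside where they could have lain, namely all intron sequence that meets the rule (26.6 Mb, called eligible). Most of the peaks lay in long introns, and 49 lay within 100 bp of an exon of the host. The medians that follow were not set beside eligible bases. The median host intron measured 1950 bp (quartiles 698 and 4788 bp), the median summit was 3372 bp inside the host's outermost start, and 386 bp from the nearest exon of the host. Introns of 1000 bp or longer held 205 peaks (66.8%, exact 95% interval 61.2% to 72%), beside 48.7% of eligible bases. First introns held 93 peaks (30.3%, interval 25.2% to 35.8%), beside 22.7% of eligible bases. Within 500 bp of another annotated start of the host lay 54 peaks (17.6%, interval 13.5% to 22.3%), beside 10.4% of eligible bases. The first 1000 bp of the host held 50 peaks (16.3%, interval 12.3% to 20.9%), beside 23% of eligible bases. These 4 shares have no test, and peaks of 1 host share their source. By chromosome, the intronic peaks numbered 12.5 per Mb of eligible sequence on I, 13.2 on II, 13.5 on III, 9.42 on IV and 9.45 on V, while the introns of X held 17.95 per Mb.

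**Figure D2:**
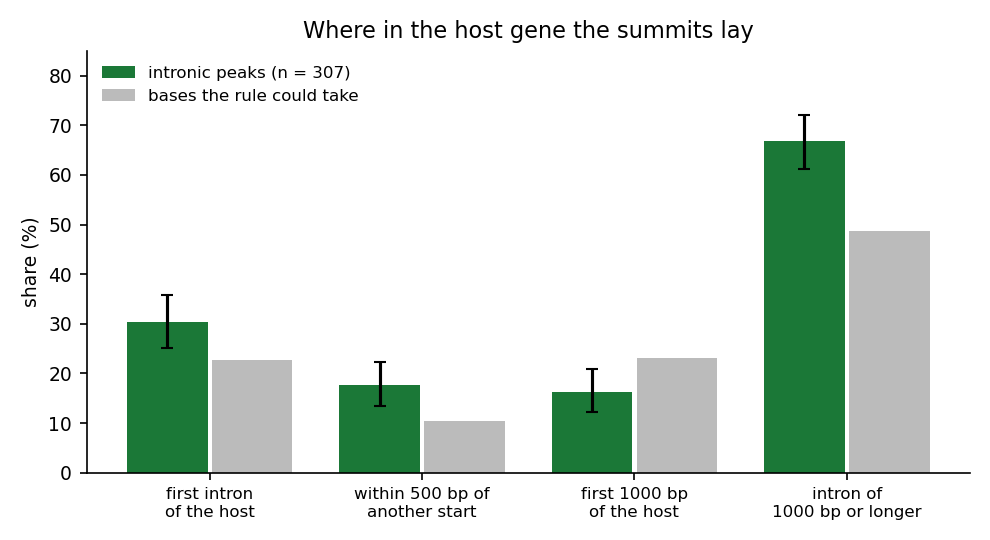
Share of autosomal intronic peaks, and of all eligible intron bases, in 4 kinds of place, with exact 95% intervals on the peaks. Long introns, first introns and the surroundings of other starts of the host hold larger shares of peaks than of bases, and the first 1000 bp of the host a smaller one.

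The rule sets some edges. Another 41 autosomal summits lay in an intron but also in the 1000 bp upstream of another gene and were left out, and 7 intronic peaks lay less than 100 bp beyond that limit. Of the intronic peaks, 5 had more than 1 host, 6 lay in an exon of another protein-coding gene, and 36 lay in a non-coding RNA gene, 28 of them annotated only as ncRNA. Windows of which over 50% was soft-masked as repeat made up 8.47% of the peaks. Of single eligible bases 53% were masked, a measure over bases that cannot be set directly against a share of windows.

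The peaks fell in 251 host genes, 1.62% of the 15533 autosomal protein-coding genes with eligible intron sequence. Of the hosts, 210 held 1 peak, 32 held 2 and 9 held 3 or more. Hosts were long, with a median of 5.35 kb of eligible intron, against 0.717 kb for all such genes, so the peaks per Mb are given beside each gene list, with 11.5 per Mb over all autosomal introns. The lists are hand-chosen selections and leave out other genes of the same kinds, so a count holds for the listed genes alone. The lists and shares below are descriptions without a test.

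ceh-8 is the tagged gene and held 4 peaks, at ranks 23, 69, 1151 and 1662 of the optimal list. The first 3 were found in both replicates and the fourth in replicate 2 only (34.1 in replicate 1 and 67.1 in replicate 2). unc-119, which the transgene also carries, held 1 peak in intron 1 (III, rank 910), with 84.5 in replicate 1 and 59.9 in replicate 2. Of the genes listed for the RIA interneuron, ceh-8 and gar-3, a muscarinic acetylcholine receptor gene, were hosts among 6 with eligible introns (207 peaks per Mb on 0.0241 Mb of sequence). The gar-3 peak ranked 1245 and was found in both replicates with signals of 52.9 and 48.98. All the RIA peaks but 1 are thus those of the tagged gene.

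Genes of synaptic transmission hosted peaks in 9 of 32 cases (28.1%), with 41.2 peaks per Mb, and 7 of the 9 peaks were found in both replicates. unc-104, the kinesin that carries synaptic vesicle precursors, had a peak of 75.5 in replicate 1 and 102 in replicate 2. The synapse assembly gene syd-1 had 83.7 and 83.6, and unc-108, a Rab gene, 67.7 and 85.7. elks-1, an active zone gene, had the strongest peak of the list, with 194 in replicate 1 and no replicate 2 peak within 200 bp. The other 5 hosts were eat-16, rbf-1, snt-1 (synaptotagmin), rab-3 and unc-41.

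Of genes of the neuronal cytoskeleton, 3 of 17 were hosts (28.0 peaks per Mb). These were max-2, a PAK kinase gene, unc-33, a CRMP gene, and unc-73. Axon guidance and adhesion gave 2 hosts of 41, the calsyntenin gene casy-1 with 4 peaks and the ephrin gene vab-2 with 1 (14.2 per Mb). The 4 lists of receptors and channels held 0 or 1 peak each. Their values lay under the 11.5 per Mb of all autosomal introns, but counts this small cannot show a lower rate. The listed voltage-gated and leak channels gave 1 host of 43 (unc-36, a calcium channel subunit gene, 3.27 per Mb on 0.306 Mb of sequence). The listed acetylcholine, GABA and monoamine receptors gave 1 of 39 (gar-3, 6.13 per Mb on 0.163 Mb). The listed neuropeptide receptors gave 1 of 40 (npr-31, 5.57 per Mb on 0.179 Mb). The listed glutamate receptors gave 0 of 17 on 0.0552 Mb. Channel genes outside these lists also held peaks, among them trpa-1, shw-3, twk-14 and twk-48, and so did chemoreceptor genes such as srx-82 and srw-103.

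Among regulators, 4 of 71 homeobox genes were hosts, with 7 peaks (34.7 per Mb), of which 4 were in ceh-8. The LIM homeobox gene lim-7 had a peak of 122 in replicate 1 and 130 in replicate 2. The peak of unc-62, a Meis-type gene, was strong in replicate 1 only and that of ceh-62 in replicate 2 only. Of the other transcription factors listed, 8 of 59 were hosts with 13 peaks (39.98 per Mb), and 8 of the peaks were found in both replicates. daf-14, a Smad gene, had 210 in replicate 1 and 104.03 in replicate 2, mef-2, a MADS-box gene, 151 and 64.5, and daf-16, the FOXO gene of insulin signalling, 89.2 and 90.2. The forkhead gene fkh-7 had 74.5 and 106 at its stronger peak. egl-27, hif-1, hlh-30 (the TFEB gene) and zip-2 were the other hosts of that list. Transcription factor genes outside it, such as nhr-124, zip-5, jun-1 and daf-5, held peaks too.

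A list of insulin, stress and other signalling genes gave 9 hosts of 41 with 11 peaks (33.8 per Mb), 5 of them found in both replicates. The hosts were mostly genes of other kinases, receptors and G proteins, so the list does not stand for insulin signalling. They were gsa-1 (the stimulatory G protein alpha subunit), pkc-1 and tpa-1 (protein kinases C), kin-1 (protein kinase A), daf-1 (a TGF-beta receptor), mpk-1 (a MAP kinase), unc-43 (CaM kinase II), daf-2 (the insulin receptor) and egl-4 (a cGMP-dependent kinase). gsa-1 had the strongest peak, 172 in replicate 1 and 86.1 in replicate 2, and pkc-1 had 158 in replicate 1 and no replicate 2 peak within 200 bp. The daf-2 peak ranked 1578 and was not found in both replicates. Neuropeptides and insulins gave 3 of 56 (41.3 per Mb), with nlp-11 and ins-1 (135 and 152) found in both replicates and nlp-15 in neither.

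The lists for other tissues held few hosts, with 0 or 1 peak each. Such counts cannot place a list above or below the 11.5 peaks per Mb of all autosomal introns. Listed genes of body wall muscle gave 1 of 30 (lev-11, tropomyosin, 4.43 per Mb on 0.226 Mb of sequence). Those of intestine gave 1 of 19 (pgp-1, a transporter gene, 48.2 per Mb on 0.0208 Mb). The listed genes of epidermis and cuticle gave 0 of 37, on 0.125 Mb of eligible intron. Those of germline and early embryo gave 0 of 29 (0.0324 Mb), and those of ribosome and translation 0 of 21 (only 0.00323 Mb). Genes of such kinds outside the lists were hosts, among them the collagen genes col-63 and col-99, the cuticulin-like gene cutl-18 and fars-1, a tRNA synthetase subunit gene. Hosts outside the lists were not sorted by tissue. The 0 of 29 therefore holds for the listed germline and early embryo genes alone.

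Some hosts held runs of peaks. All 5 peaks of pqn-41 lay in its intron 15 and were found in both replicates, at ranks 26, 32, 177, 639 and 1103. All 5 peaks of zfp-1, a gene related to human AF10, were also found in both, although 2 of them (ranks 175 and 1674) share the same replicate peaks. casy-1 had 4 peaks at ranks 248, 805, 1377 and 1667, the last found in replicate 2 only. The other hosts with 3 peaks were ppfr-1, glb-25 (a globin gene), egl-27, ercc-1 (a DNA repair nuclease gene) and aakg-1 (an AMP kinase subunit gene). The 3 glb-25 peaks were found in both replicates, while 1 of the 3 egl-27 peaks and 1 of the 3 ercc-1 peaks were. Over all hosts, 9 pairs of neighbouring intronic peaks had summits within 1000 bp, involving 17 peaks.

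**Figure D3:**
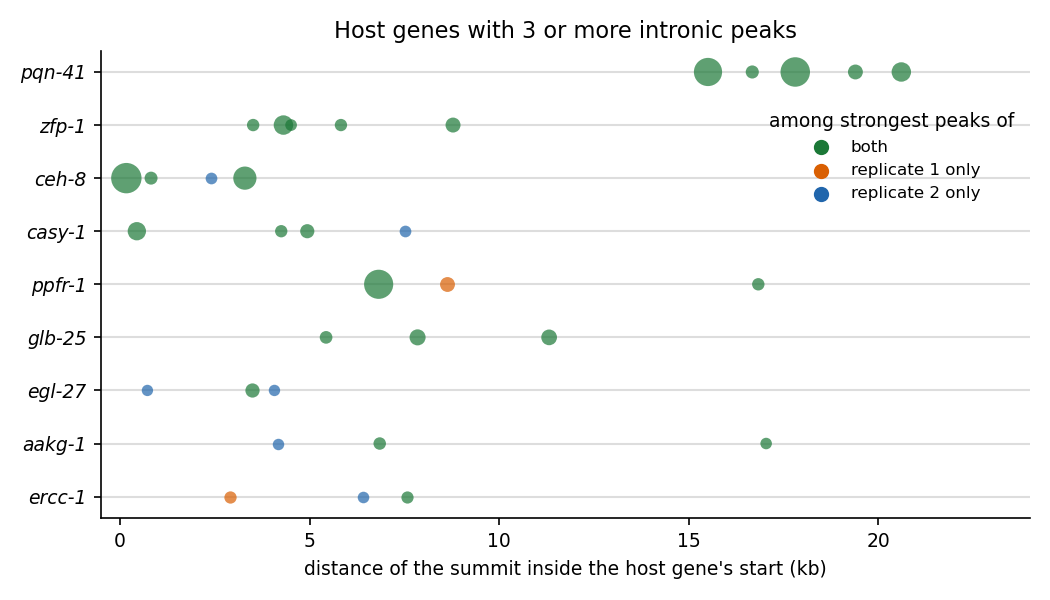
Positions of the intronic peaks within the 9 hosts that held 3 or more, as distance from the gene's outermost start in kb, with colour for the replicates in which a peak was found. The area of a point is in proportion to the authors' signal, and the 5 pqn-41 peaks all lie in 1 intron.

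Base composition set the intronic peaks apart from their surroundings and split the replicates. Within 50 bp of the summit the median content of G and C was 46.5%, where eligible intron sequence as a whole had 32.2%. Peaks found in both replicates had a median of 44.6%, those of replicate 1 only 59.4% and those of replicate 2 only 41.6%. At least 50% G and C was reached by 47 of the 60 peaks of replicate 1 only (78.3%), against 13 of the 65 of replicate 2 only (20%). The difference passed Fisher's exact two-sided test (Benjamini-Hochberg adjusted p = 3.52e-10 over 9 tests among the intronic peaks). What separates the replicates here was not tested. The same content was reached by 54 of 175 peaks found in both (30.9%) and 61 of 132 others (46.2%, adjusted p = 0.0265, same exact test). Each test takes peaks as independent and so covers counting error alone.

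Against promoter peaks, the G and C content depended on the width looked at. At 50 bp to each side, 37.5% of intronic and 33.8% of the 708 autosomal promoter peaks reached 50% G and C (difference 3.70 points, Fisher's exact two-sided test, adjusted p = 0.413 over 23 tests between classes). At 100 bp to each side the shares were 30.6% and 15.4% (adjusted p = 1.37e-06, same exact test). At 25 bp they were 40.1% and 47.6% (adjusted p = 0.13, same exact test). The classes were thus told apart at 100 bp only, where the intronic share was higher. Without replicate 1, that is over the 1891 strongest peaks of replicate 2, the shares at 50 bp were 22.4% in introns and 28.0% in promoters.

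**Figure D4:**
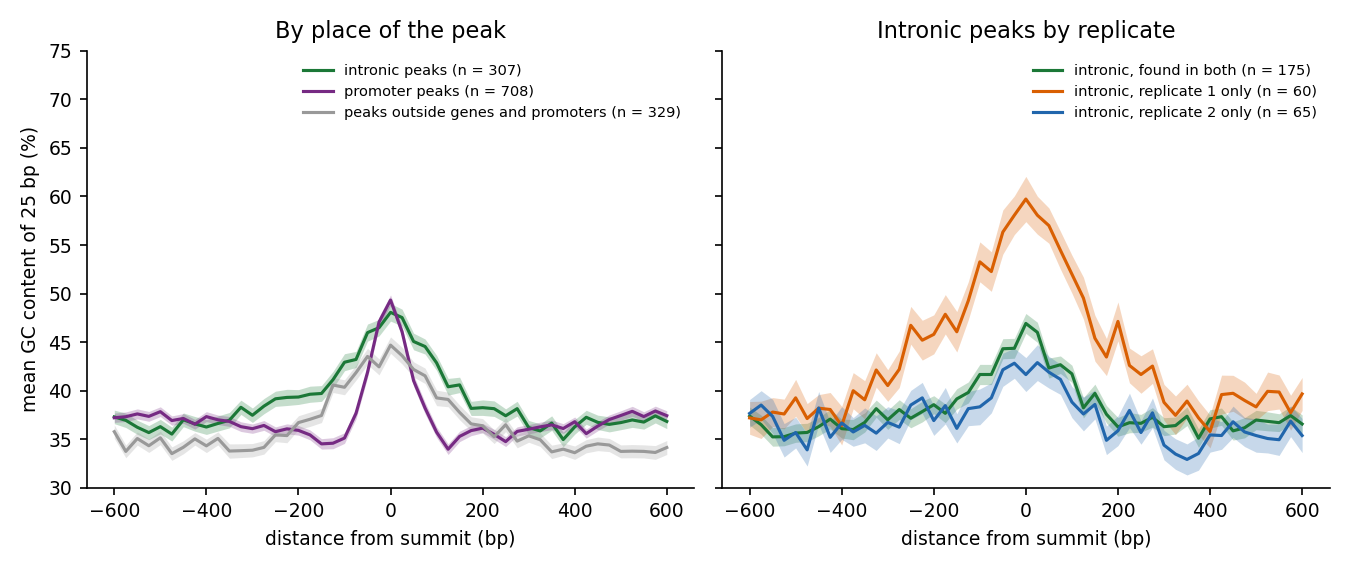
Mean G and C content (%) against distance from the summit (bp) for autosomal intronic peaks, autosomal promoter peaks and autosomal peaks outside genes and promoters (left), and for intronic peaks by replicate (right), with bands of 1 standard error over peaks. The intronic curve falls more slowly to each side than the promoter curve, and peaks of replicate 1 only rise highest.

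For 9 motifs, searched on both strands, the 101 bp around the summit were set against flanks centred at 250 bp that together have that length. The exact binomial test used peaks where the motif was at the summit or in the flanks but not in both. Flanks were not matched for base composition. Mean G and C content was 48.1% at the summit, 39.2% at 250 bp before it and 37.4% at 250 bp after it. How far this alone shifts counts of letters rich in A and T, or in G and C, was not tested. Of the 9 motifs, 4 (44.4%) passed. GAGAGA was at 85 summits and in the flanks of 27 peaks (27.7% and 8.79%, exact binomial test, adjusted p = 3.90e-08 over 9 motifs). It was in 4.27% of all eligible intron windows of 101 bp. The homeodomain palindrome TAATNNNATTA was at 8 summits and in the flanks of 0 peaks (2.61%, interval 1.13% to 5.07%, exact binomial test, adjusted p = 0.0234), beside 0.505% of windows. CCGCCC was at 25 summits and in the flanks of 11 peaks (exact binomial test, adjusted p = 0.0282). TGATAA, the GATA letters, was rarer at summits, at 10 against 32 peaks with it in the flanks (exact binomial test, adjusted p = 0.00306). Other classes, not tested, mostly went the same way. GAGAGA was at 135 promoter summits and in 44 flanks, TGATAA at 25 and 67, CCGCCC at 42 and 9, and the palindrome at 9 and 5. Outside genes and promoters, in the same order, the counts were 92 and 34, 24 and 34, 14 and 8, and 8 and 0. In X introns they were 17 and 5, 7 and 10, 2 and 3, and 2 and 0. These directions are thus not particular to autosomal introns.

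Single homeodomain letters did not pass with flanks at 250 bp. TAATTA was at 20 summits and in the flanks of 18 peaks (exact binomial test, adjusted p = 0.972), at 6.51% of summits against 5.33% of all windows. TAATTG, which overlaps the palindrome when its middle bases are TGA, was at 39 summits and in the flanks of 23 peaks (exact binomial test, p = 0.0440, adjusted p = 0.0793). Among the intronic peaks, TAATTG was held by 30 of the 175 found in both replicates (17.1%) and 9 of the 132 others (6.82%, Fisher's exact two-sided test, adjusted p = 0.0265). The others were uneven. TAATTG was at 0 of the 60 summits of replicate 1 only, the peaks rich in G and C, which allows a share of up to 5%, at 7 of the 65 of replicate 2 only (10.8%) and at 2 of the 7 found in neither. For CAGCTG the numbers were 7 summits and 12 flanks, for TGACTCA 4 and 2, and for TTGCGCAA 0 and 0. None of these 3 passed. In other classes, without a test, TAATTG was at 19 X intronic summits and in 0 flanks. Its counts were 48 and 34 outside genes and promoters and 60 and 71 at promoters. For TAATTA the counts were 11 and 9 in X introns, 37 and 18 outside genes and promoters, and 34 and 40 at promoters.

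Without replicate 1, over the 357 intronic peaks among the strongest of replicate 2, the palindrome was at 8 summits and in 1 flank (exact binomial test, adjusted p = 0.117). There CCGCCC was at 12 summits and in 11 flanks and TGATAA at 18 summits and in 25 flanks, and neither passed. With 100 bp to each side, the palindrome was at 13 summits and in 5 flanks (adjusted p = 0.115, same exact test). GAGAGA passed in both of these. With promoters of 2000 bp, CCGCCC was at 19 summits and in 10 flanks (adjusted p = 0.168) and TGATAA at 9 summits and in 20 flanks (adjusted p = 0.138, same exact test). With the strongest peak of each host, CCGCCC was at 20 summits and in 9 flanks (adjusted p = 0.0781, same exact test). At 25 bp to each side and in the stronger 50% of the list, neither CCGCCC nor TGATAA passed.

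**Figure D5:**
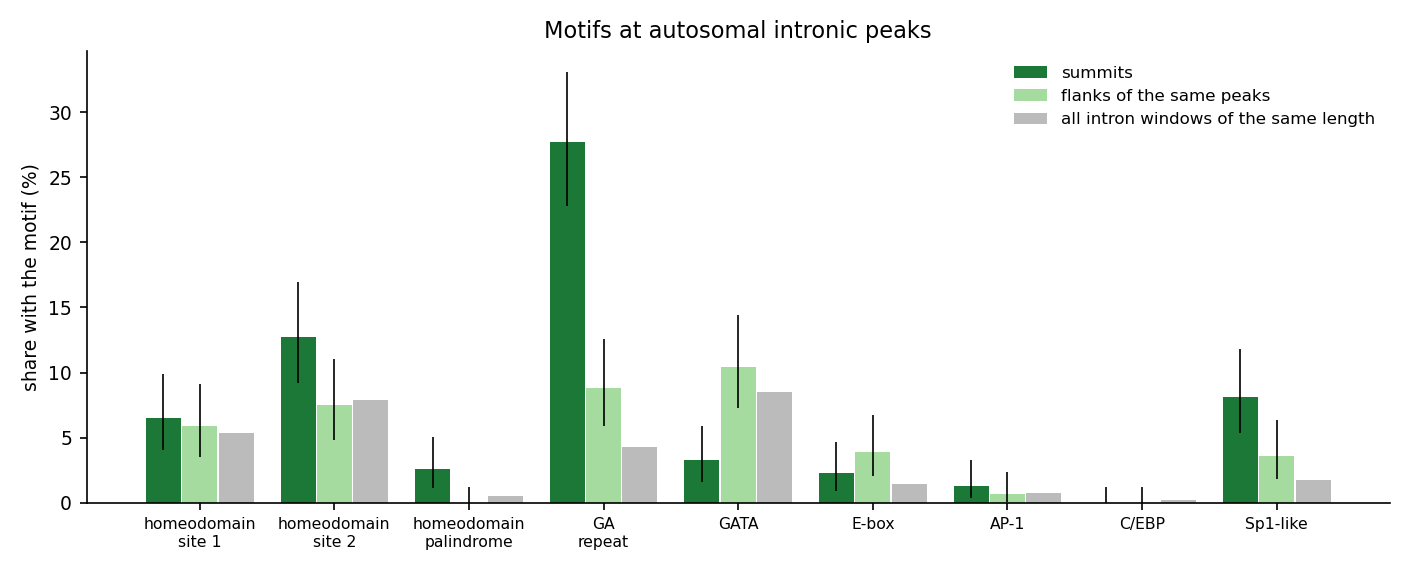
Share (%) of intronic peaks with each of 9 motifs at the summit and in the flanks, with exact 95% intervals, and of all eligible intron windows of 101 bp. The GA repeat stands out at summits, the GATA letters are rarer there than in flanks, and TAATTA (homeodomain site 1) is near level across the 3 bars.

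The 8 palindromes lay within 43 bp of their summits, and 6 of the peaks were found in both replicates. Their hosts were lsy-22, sec-23 (a COPII coat gene), max-2, pes-4, rhgf-3 and Y53G8AM.8. The other 2, in ceh-62 and ceh-8, were found in replicate 2 only. The middle bases were TGA in sec-23, pes-4 and ceh-62, CGA in max-2 and AGA in Y53G8AM.8. sec-23 had the second strongest peak of the 8, with 149 in replicate 1 and 109 in replicate 2. The max-2 peak had 94.6 and 98.1, and the ceh-62 peak 37.6 and 53.7. The palindrome peaks thus span strong and weak ranks, down to 1662 of the optimal list.

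The GA letters were mostly short. The median longest GA run at the 85 summits was 7 bp and the longest 43 bp, and 11 runs reached 12 bp. The peak in daf-14 shown above is one of the long runs. Of the 85 peaks 57 (67.1%) were found in both replicates, and GAGAGA was held by 32.6% of peaks found in both and 21.2% of the others (Fisher's exact two-sided test, adjusted p = 0.0657). The run was on the strand of the host in 32, on the other strand in 50 and on both in 3 (exact binomial two-sided test, p = 0.0598).

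A search of all 2080 words of 6 bases, each taken with its reverse complement, called 40 (1.92%) as more frequent at summits and 48 (2.31%) as more frequent in flanks, by the exact binomial test with adjustment over all words. AGAGAG led at summits with GAGAGA next to it, followed by CGTCTC (50 summits and 9 flanks), by CGCAGA (33 and 2) and by ACGCAG (34 and 3). Words made of A and T led in flanks, with AAAAAA at 16.3% of summits and in 37.5% of flanks, and AAAATT at 14.98% and 34.2%. Here too the flanks were not matched for base composition and held less G and C than the summits. A chain of 5 called words, with GAGACG at its start and CGCAGA at its end, overlaps into GAGACGCAGA. Its core AGACGCAG was at 24 intronic summits and in 2 flanks, a count without a test because the intronic peaks chose the letters, and in 0.621% of windows. Of these 24 peaks 17 were found in both replicates, and 14 also held GAGAGA. The epg-9 peak holds the core 2 times. In peaks not used to choose it, the core was at 52 promoter summits and in 6 flanks (exact binomial test, adjusted p = 1.14e-10 over 3 classes), at 33 autosomal summits outside genes and promoters and in 3 flanks (adjusted p = 3.41e-07), and at 5 X intronic summits and in 0 flanks (adjusted p = 0.0625).

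How intronic peaks differ from promoter peaks was tested on measures the rule did not use. Found in both replicates were 57% of intronic and 68.1% of promoter peaks (482 peaks), a difference of -11.1 points (odds ratio 0.622, 95% interval 0.468 to 0.828, Fisher's exact two-sided test, adjusted p = 0.00895 over 23 tests). The stronger 50% of the optimal list took in 140 intronic peaks (45.6%) and 413 promoter peaks (58.3%, adjusted p = 0.00479, same exact test). Strength and recovery move together. Within the stronger 50%, 82.9% of intronic and 93.9% of promoter peaks were found in both (adjusted p = 0.00474, same exact test), and within the rest 35.3% and 31.9%. With promoters of 2000 bp the difference in recovery was -6.09 points (adjusted p = 0.228, same exact test). For the stronger 50%, ranking by replicate 2 alone, without replicate 1, gave a difference of -24.03 points (Fisher's exact test, adjusted p = 4.25e-12). Ranking by replicate 1 alone, without replicate 2, gave -8.77 points (Fisher's exact test, adjusted p = 0.0585), and keeping the strongest peak of each host -8.53 points (adjusted p = 0.0789).

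GAGAGA was more frequent at intronic summits, at 27.7%, than at promoter summits, at 19.1% (135 peaks, odds ratio 1.63, interval 1.17 to 2.24, Fisher's exact two-sided test, adjusted p = 0.0214). The difference was 6.76 points without replicate 1 (adjusted p = 0.0508) and 4.64 points without replicate 2 (adjusted p = 0.198, same exact test), and passed in neither. The palindrome was at 2.61% of intronic and 1.27% of promoter summits (odds ratio 2.08, interval 0.690 to 6.13, same exact test, adjusted p = 0.318), so a difference was not detectable.

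After adjustment, intronic peaks were not told apart from the 329 autosomal peaks outside genes and promoters on any of 7 measures. The smallest p was for at least 50% G and C, reached by 37.5% and 29.2% (odds ratio 1.45, interval 1.03 to 2.05, Fisher's exact two-sided test, p = 0.0286, adjusted p = 0.165). Found in both were 57% and 51.4% (odds ratio 1.26, interval 0.907 to 1.74, Fisher's exact two-sided test, adjusted p = 0.318), GAGAGA was at 27.7% and 28.0% of summits, and TAATTA at 6.51% and 11.2% (p = 0.0381, adjusted p = 0.175). Against the 96 intronic peaks of X, none of 9 measures passed. First introns held 30.3% of the autosomal and 39.6% of the X intronic peaks (odds ratio 0.663, interval 0.402 to 1.103, same exact test, adjusted p = 0.241).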

How the data were processed

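Per the file headers, peaks were called by the authors on each replicate and on both pooled, each with a control alignment (not analysed here), and the optimal IDR list derives from those lists. The deposited signal of a peak entered the tests only as its rank within a list, and is otherwise printed and plotted as a description. Neither the peak caller nor the aligner is named, and the IDR threshold was not given in the sources used here. Read depth is unknown, and no interval rests on it. Replicate numbers are those of the labels, and fragments were 200 to 800 bp per the labels. Replicates share 1 strain, and nothing beyond the label says how they were grown.

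Each replicate list held 30000 peaks, of which the 1891 strongest were used, as many as the optimal list holds. The optimal list was the 1891 strongest pooled peaks. Peaks were placed on Ensembl release 115 models of WBcel235, the same assembly as ce11. A gene start is its outermost annotated start, and introns exclude every exon of the host over all transcripts. Summit and flank windows offered equal numbers of start positions. Shares were compared with Fisher's exact test, motifs and words with the exact binomial test, each adjusted by Benjamini-Hochberg within its family, at a threshold of 0.05. Python 3.11.15, numpy 2.4.6, scipy 1.17.1 and pandas 2.3.3 were used. The motif, word and Fisher's tests were first run on simulated data with planted motifs and shares. Class assignment was checked at positions of known class in the gene models, and other steps were not tested in this way.

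The peaks, gene lists and tests were chosen with earlier results of these data known. Genes named are hosts of the 15 strongest peaks found in both replicates, the strongest on each autosome, up to 4 per gene list (others of a list are named to complete its count), hosts of 3 or more peaks, palindrome peaks, ceh-8 and unc-119. W06H8.6, bed-2 and lin-42 were added as sequence examples after their values were seen. Hosts named as outside a list were also chosen after their values were seen. Of 832 listed names 11 did not match a gene. Alternatives changed the promoter length, summit distance, window, flank and peak set.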

Additional observations from a re-analysis of the deposited data

How the results depend on the processing

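All tests here are Fisher's exact or exact binomial tests. Of 141 recomputed values, 20 no longer passed, 8 turned direction, 4 moved, 1 newly passed and the others kept direction and side of the threshold. The share found in both, intronic minus promoter, was -6.09 points with promoters of 2000 bp (exact test, adjusted p = 0.228) and passed under every other alternative run. The same share against peaks outside genes turned to -0.0376 points in the stronger 50% of the list and -1.48 with any deposited replicate peak, without passing. The share in the stronger 50% was -8.53 points with the strongest peak of each host (exact test, adjusted p = 0.0789). The GAGAGA difference from promoters was 10.4 points in the stronger 50% (exact test, adjusted p = 0.0701) and 5.48 at 25 bp (adjusted p = 0.0882). The G and C difference was -7.53 points at 25 bp, 15.2 at 100 bp (exact test, adjusted p = 1.37e-06) and -0.547 without peaks in non-coding RNA genes, an alternative chosen after seeing the data. The palindrome's excess at summits was 4.29 points in the stronger 50% (exact test, adjusted p = 0.0643), 1.30 at 25 bp (adjusted p = 0.188) and 2.61 at 100 bp (adjusted p = 0.115). TAATTA was -0.373 points with promoters of 2000 bp and -1.20 per host, never passing. The stronger 50% held 140 intronic peaks. There and at 25 bp, 1 motif passed in place of 4. With flanks at 500 bp 5 motifs passed, but TAATTA did not (exact binomial test, adjusted p = 0.148). The causes were not tested, and restricted sets hold fewer peaks.

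Leaving out replicate 1 or replicate 2 (ranking by the other alone) gave -24.03 to -8.77 points for the stronger 50%, -5.57 to 7.57 for G and C, 4.64 to 6.76 for GAGAGA against promoters, 14.01 to 14.98 for GAGAGA against flanks, 1.96 to 2.45 for the palindrome, -0.917 to 2.80 for TAATTA, -7.81 to -4.48 for first introns against X, 1 to 4 motifs and 327 to 357 intronic peaks. Recovery in both replicates cannot be computed with 1 replicate. No paired analysis was possible because the samples form 1 group. Depth per replicate is unknown, and a share's precision is limited by the number of peaks.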
